A study of Mus musculus with 5 samples.

Results

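Transcripts of the CDK inhibitor genes were measured in CD11A- and CD11A+ hematopoietic stem cells (HSCs) of mouse bone marrow. The members were the 7 genes of the Cip/Kip branch (Cdkn1a, Cdkn1b, Cdkn1c) and the Ink4 branch (Cdkn2a, Cdkn2b, Cdkn2c, Cdkn2d), chosen by gene symbol, with every probeset that the array annotation assigns to them. These were 9 of 45037 probesets, and 7 of 18193 genes. Among them, Cdkn2c had higher values in both CD11A+ arrays than in every CD11A- array, and Cdkn1c had lower values in CD11A+ HSCs on each day on which both subfractions were sorted. Neither passed the test over all probesets, and on their brightest probesets the mean differences of the other 5 genes were -0.17 to 0.23 log2 units.

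Inhibitors of cyclin-dependent kinases (CDKs) hold cells in G1 or outside the cycle. Ink4 proteins bind Cdk4 and Cdk6 and keep D-type cyclins from joining them, whereas Cip/Kip proteins bind assembled cyclin-CDK complexes and can block Cdk2. In mice, loss of p57, the product of Cdkn1c, impairs the quiescence of HSCs, and loss of p18, the product of Cdkn2c, expands them.

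The 5 samples came from male C57/Bl6 mice without a transgene or treatment named in the labels, 3 from CD11A- and 2 from CD11A+ HSCs. Both came from one gate after KIT enrichment and a repeated sort, positive for KIT, SCA-1, CD150, EPCR and CD27 and negative for lineage markers, FLK2 and CD34, and were divided by surface CD11A. Each sample was 1011 to 2293 cells from 1 to 2 mice, and its RNA was amplified in 2 cycles before it was hybridised to an Affymetrix whole-genome mouse array. On day A, CD11A- replicate 2 and CD11A+ replicate 1 were sorted from animals aged 8 to 12 weeks. On day B, at 10 weeks of age, CD11A- replicate 3 was sorted beside CD11A+ replicate 2. CD11A- replicate 1 was sorted by itself on day C, at 6 weeks. Values are log2 units made by RMA, and with 5 arrays the precision is limited.

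The array medians lay between 5.55 and 5.62. Itgal, which encodes CD11A, had 5.15, 5.43 and 5.27 in CD11A- replicates 1 to 3, and 8.49 and 5.67 in CD11A+ replicates 1 and 2, on its brighter probeset. The dimmer had 4.82, 4.39 and 4.57 in CD11A- and 5.11 and 4.65 in CD11A+ replicates, and there the groups overlapped. CD11A+ replicate 1 stood apart from the other arrays. It had the highest value for 19 of 19 measured proliferation genes. Of the granulocyte genes, Mpo, a myeloid granule enzyme, had 8.72 in it and 4.45 to 4.59 elsewhere. Prtn3 (11.89) and Elane (4.89), of the same list, were not highest in it. The mean of 14 measured granulocyte genes was 8.29 in it, 7.24 in CD11A- replicate 2 of the same day, and 5.44 to 5.80 elsewhere. Of 17 HSC-associated genes measured, 12 had a lower mean in CD11A+ HSCs. The list also holds genes for proteins that the gate or the sort selected on. Of these, Cd34 and Flt3, which the gate excluded, and Itgal, which divided the subfractions, were 3 of the 5 genes with a higher mean. The other 14 genes still hold Kit, Slamf1, Procr and Cd27, whose proteins the gate required, so they are not free of gate genes. Over these 14 genes, 12 were lower. Their mean value was 10.63 to 10.94 in CD11A- and 9.56 and 10.42 in CD11A+ arrays, without overlap. With CD11A+ replicate 1 left out, 8 of the 17 were lower. Within sort days, 12 of the 14 genes were lower on day A and 11 on day B. The labels do not say whether replicates share mice, so p-values measure the spread between these samples.

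Cdkn2c encodes p18 and was the Ink4 member with the largest difference. Its log2 value was 7.38, 7.37 and 6.73 in CD11A- replicates 1 to 3, and 9.78 and 8.02 in CD11A+ replicates 1 and 2. The groups did not overlap, and the gap between the highest CD11A- and the lowest CD11A+ array was smaller than that between the CD11A+ arrays. The means were 7.16 ± 0.37 (SD, n = 3) and 8.90 ± 1.24 (SD, n = 2), a difference of 1.74 log2 units (standard error 0.53, 95% interval 0.43 to 3.05), or 3.34-fold. The adjusted p from limma over all probesets was 1.00 (unadjusted p = 0.0175), and the exact two-sided permutation test gave p = 0.1, the smallest that 3 against 2 arrays allow. Within sort day A Cdkn2c was 2.41 log2 units higher in CD11A+ HSCs (5.31-fold), and within day B 1.29 units higher (2.45-fold). With sort day as a block the difference was 1.85 (adjusted p = 0.647 from limma, on 1 residual degree of freedom). In RNA of sorted populations, fewer cells with a transcript and less transcript per cell cannot be told apart.

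**Figure D1:**
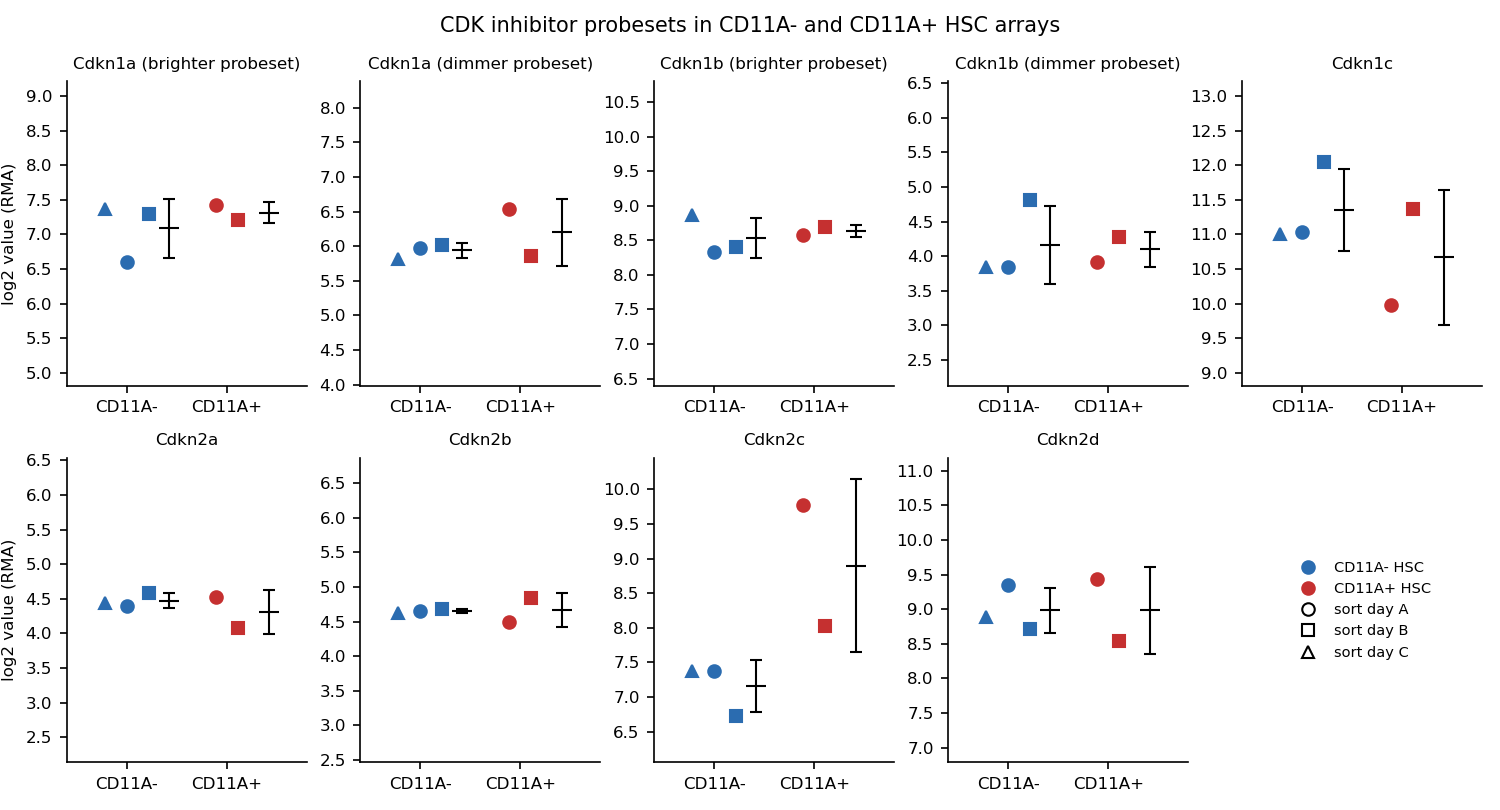
Log2 values of the 9 CDK inhibitor probesets, 1 panel each, in CD11A- (blue, n = 3) and CD11A+ (red, n = 2) HSC arrays, with marker shapes for the sort day and bars for the mean ± SD; every panel spans the same number of log2 units. The Cdkn2c panel is the one where both CD11A+ points (9.78 and 8.02) lie above all CD11A- points (6.73 to 7.38).

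Of the 7 genes, Cdkn2c was the 1 whose CD11A+ values both exceeded all CD11A- values, as did 8.56% of all genes, and none had both below, as did 10.4% of all genes. In the fit without a block, Cdkn2c was also the 1 with an unadjusted p under 0.05 from limma, as had 5.06% of all genes (1.48% with a higher mean in CD11A+ HSCs). No gene passed an adjusted p of 0.05, and 0% of the 45037 probesets did. At an unadjusted p under 0.05, 1917 probesets were called, which is 4.26%. Such counts among 7 genes are too small to be read against these shares. Without CD11A+ replicate 1 the Cdkn2c difference was 0.86, and without CD11A+ replicate 2 it was 2.62.

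The promoter windows of Cdkn2c are shown because it was the member with groups that did not overlap. RefSeq gives it 2 starts on chromosome 4, 1384 bases apart, and the array's single Cdkn2c probeset was not assigned to either. Each window runs from 250 bases before to 50 bases after the start on the minus strand of GRCm38.p6, and capitals mark matches to the E2F core TTTCGCG or TTTGGCG on either strand.
Cdkn2c, upstream start, chr4:109666707-109667006: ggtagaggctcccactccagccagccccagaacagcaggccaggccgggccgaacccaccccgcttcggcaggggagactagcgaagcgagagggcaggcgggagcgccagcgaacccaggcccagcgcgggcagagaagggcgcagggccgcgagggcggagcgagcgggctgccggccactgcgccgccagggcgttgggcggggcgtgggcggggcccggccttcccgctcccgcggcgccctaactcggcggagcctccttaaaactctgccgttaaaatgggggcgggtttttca
Cdkn2c, downstream start, chr4:109665323-109665622: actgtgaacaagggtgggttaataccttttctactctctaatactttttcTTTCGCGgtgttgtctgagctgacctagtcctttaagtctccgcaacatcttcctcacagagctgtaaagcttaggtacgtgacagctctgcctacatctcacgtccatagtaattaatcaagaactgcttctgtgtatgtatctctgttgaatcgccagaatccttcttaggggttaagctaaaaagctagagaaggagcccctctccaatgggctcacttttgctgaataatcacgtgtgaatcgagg
The upstream window had 73.3% G and C and 4 matches to the GC box GGGCGG, which 35.7% of 32851 promoter windows of this length hold. The downstream window had 44% G and C, 0 GC boxes and 1 match to TTTCGCG, 200 bases before the start, a match that 0.849% of all windows hold. It also had 1 match to the E-box CACGTG (7.15% of all windows) after the start. The other variant of the E2F core, TTTGGCG, is held by 1.56% of all windows and was in neither. Windows were given for 6 of the 7 genes, 9 in all, and the downstream window of Cdkn2c was the 1 with an E2F core. These matches describe the sequence and were not tested for binding.

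The other Ink4 genes had small differences between the subfractions. Cdkn2d, which encodes p19 of the Ink4 family, had 8.88, 9.35 and 8.72 in CD11A- replicates 1 to 3, and 9.43 and 8.54 in CD11A+ replicates 1 and 2. The CD11A+ arrays were the highest and the lowest of all, and the means were the same to 2 decimals (8.98 ± 0.33, SD, n = 3, and 8.98 ± 0.63, SD, n = 2). Its difference of 0.00 had a 95% interval of -0.82 to 0.83. Both arrays of day A lay above both of day B, by more than the subfractions differed within a day (0.08 on day A and -0.18 on day B).

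Cdkn2a and Cdkn2b are adjacent genes on chromosome 4 that are repressed by Polycomb proteins in young stem cells. Cdkn2a encodes p16 and, from another first exon, the p53 activator Arf, and its probeset was not split between these products. It had 4.44, 4.39 and 4.59 in CD11A- replicates 1 to 3, and 4.53 and 4.08 in CD11A+ replicates 1 and 2. Cdkn2b, which encodes p15, had 4.62, 4.65 and 4.68 in CD11A- and 4.49 and 4.84 in CD11A+ replicates. Both probesets lay below 5.60, the median of all probesets, on every array, and the files hold no detection calls, so their values may be background. The CD11A+ minus CD11A- differences were -0.17 (95% interval -0.68 to 0.35) for Cdkn2a and 0.01 (95% interval -0.45 to 0.48) for Cdkn2b. Each had opposite signs on the days, 0.14 and -0.51 for Cdkn2a and -0.16 and 0.16 for Cdkn2b on days A and B.

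Cdkn1c was the Cip/Kip member with the largest difference, in the direction opposite to Cdkn2c. Its log2 value was 11.00, 11.03 and 12.04 in CD11A- replicates 1 to 3, and 9.98 and 11.36 in CD11A+ replicates 1 and 2. The lowest array was CD11A+ and the highest CD11A-, but the groups overlapped, since CD11A+ replicate 2 lay above CD11A- replicates 1 and 2, which came from other sort days. Over all arrays it was 0.69 log2 units lower in CD11A+ HSCs (difference -0.69, standard error 0.51, 95% interval -1.94 to 0.56, adjusted p = 1.00 from limma; exact permutation p = 0.6). Within day A the difference was -1.05 (2.07-fold lower) and within day B it was -0.68 (1.60-fold lower), and with sort day as a block it was -0.86 (adjusted p = 0.692 from limma). Without CD11A+ replicate 1 the difference was 0.00, and without CD11A+ replicate 2 it was -1.38. The CD11A- arrays alone spanned 1.04 log2 units, about as much as the difference within day A.

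Cdkn1a encodes p21, a target of p53. Its brighter probeset had 7.36, 6.60 and 7.30 in CD11A- replicates 1 to 3, and 7.42 and 7.21 in CD11A+ replicates 1 and 2. The dimmer had 5.82, 5.98 and 6.02 in CD11A-, and 6.54 and 5.86 in CD11A+ replicates. CD11A+ replicate 1 was the highest array on both probesets, and CD11A+ replicate 2 lay among or near the CD11A- arrays. The differences were 0.23 (95% interval -0.47 to 0.92) and 0.26 (95% interval -0.35 to 0.87), and both probesets were higher in CD11A+ HSCs on day A (0.82 and 0.56) and lower on day B (-0.09 and -0.16).

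Cdkn1b encodes p27, which accumulates in resting cells. Its brighter probeset had 8.86, 8.33 and 8.41 in CD11A- replicates 1 to 3, and 8.57 and 8.69 in CD11A+ replicates 1 and 2. All 5 arrays lay within 0.53 log2 units, the CD11A+ arrays between the CD11A- arrays. The difference was 0.10 (95% interval -0.46 to 0.65), with 0.24 on day A and 0.28 on day B. The other probeset was dim, at 3.84 to 4.81, and had a difference of -0.06.

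**Figure D2:**
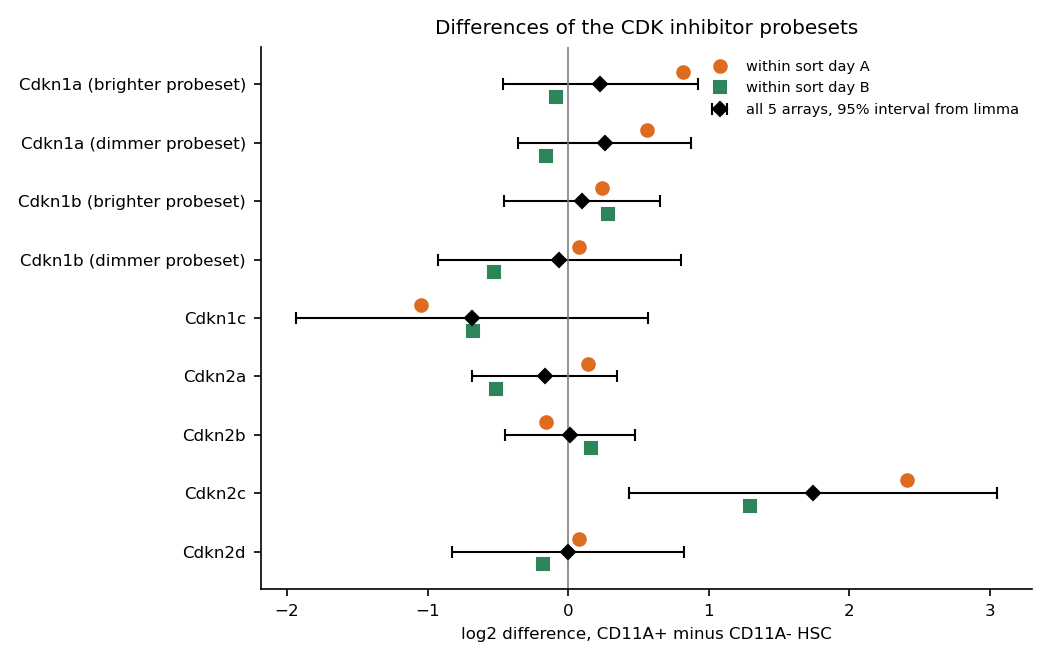
Log2 difference of CD11A+ minus CD11A- HSCs for the 9 probesets, over all 5 arrays (black diamonds, with 95% intervals from limma) and within sort day A (orange circles) and day B (green squares), each of 1 array per subfraction. The interval of Cdkn2c (0.43 to 3.05) is the one that does not hold 0, and it is not adjusted for the number of probesets.

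Within days, Cdkn2c, Cdkn1c and Cdkn1b had one sign on both days, 3 of the 7 genes, as had 53.3% of all genes. The other 4 had opposite signs, as had 44.2% of all genes. Cdkn2c and Cdkn1c were the members with a difference over 0.5 log2 units in one direction on both days.

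The branches were compared by centring each gene on its mean over the 5 arrays, since levels of different probesets are not on one scale. The mean of the 3 Cip/Kip genes was 0.13, -0.29 and 0.31 in CD11A- replicates 1 to 3, and -0.29 and 0.14 in CD11A+ replicates 1 and 2. The mean of the 4 Ink4 genes was -0.15, -0.04 and -0.30 in CD11A-, and 0.58 and -0.11 in CD11A+ replicates. Both overlapped between the subfractions, and the array that stood out was CD11A+ replicate 1, where Ink4 was highest. The Cip/Kip minus Ink4 value was 0.27, -0.26 and 0.60 in CD11A-, and -0.87 and 0.25 in CD11A+ replicates.

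In the Cip/Kip branch the CD11A+ mean was higher for 2 genes and lower for 1, with a median difference of 0.10 and a mean of -0.12, which differ in sign. In the Ink4 branch 3 were higher and 1 lower, with a median of 0.01 and a mean of 0.40. Over all genes the median difference was -0.01, and 48.3% had a higher mean. The medians of the branches differed by 0.09, with 0.13 on day A and -0.08 on day B, and their means by -0.52, of the opposite sign (Cip/Kip minus Ink4). Each mean rested on 1 gene. Without Cdkn2c the mean of the Ink4 genes was -0.05, and without Cdkn1c that of the Cip/Kip genes was 0.16. Without CD11A+ replicate 1, 3 of the 3 Cip/Kip genes and 2 of the 4 Ink4 genes had a higher mean. No p is given for values over the members.

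**Figure D3:**
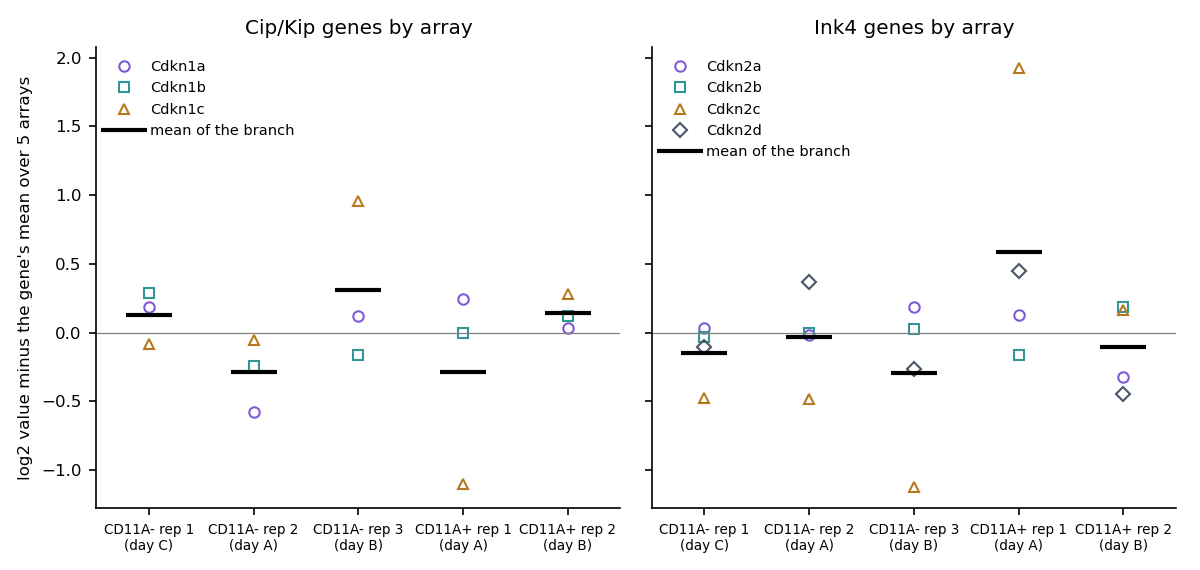
Log2 values of the Cip/Kip (left) and Ink4 (right) genes on each array after subtraction of the gene's mean over the 5 arrays, with open markers for genes and black bars for the mean of the branch. Cdkn1c spreads most among the Cip/Kip genes and Cdkn2c among the Ink4 genes, and the Ink4 mean is highest (0.58) in CD11A+ replicate 1.

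The kinases and cyclins that these proteins restrain were read from lists. Of the 5 genes of D cyclins and their kinases, 2 were higher and 3 lower in CD11A+ HSCs by their means, and 0 passed the adjusted test. Cdk6, a target of p18, had 10.30, 10.41 and 10.24 in CD11A- replicates 1 to 3, and 12.05 and 10.90 in CD11A+ replicates 1 and 2. Both CD11A+ arrays lay above all CD11A- arrays, as for Cdkn2c, with differences of 1.64 and 0.66 on days A and B and 0.58 without CD11A+ replicate 1. Cdk4, the other kinase that Ink4 proteins bind, had a difference of 0.33, and its groups overlapped. Ccnd2, a D cyclin, had 12.16, 12.15 and 12.30 in CD11A- and 11.63 and 12.07 in CD11A+ replicates, a difference of -0.35, with 1 of its 7 probesets of the opposite sign.

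Of 7 measured E, A and B cyclins and their kinases, 7 had a higher mean in CD11A+ HSCs, with a median difference of 1.28. Without CD11A+ replicate 1, 5 were higher and 2 lower, with a median of 0.15. Within sort days, 6 of the 7 were higher on day A (median 1.84) and 7 on day B (median 0.99). The mean of the list was 6.96, 7.28 and 5.95 in CD11A- replicates 1 to 3 and 6.91 in CD11A+ replicate 2, and it was highest in CD11A+ replicate 1, so that the subfractions overlapped. Cdk2, the kinase that Cip/Kip proteins block, had 9.08, 8.48 and 8.90 in CD11A- replicates 1 to 3, and 9.45 and 9.89 in CD11A+ replicates 1 and 2. Its groups did not overlap, and within the days it differed by 0.97 and 0.99, though its other probeset had a difference of -0.00. Ccne1, a cyclin partner of Cdk2, had 6.97, 6.78 and 6.70 in CD11A- and 8.62 and 7.10 in CD11A+ replicates. Its groups did not overlap, but its difference of 1.04 was 1.84 on day A and 0.40 on day B, and 0.28 without CD11A+ replicate 1. Of the pocket proteins, which CDKs phosphorylate, Rbl1 differed by 0.73 and Rbl2 by -0.45, without overlap in either case, and 2 of the 4 Rbl1 probesets were of the opposite sign. None of these genes passed limma's adjusted test.

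The arrays at the extremes of Cdkn2c and Cdkn1c were also those at the extremes of the proliferation genes. The mean of 19 measured proliferation genes was 7.42, 8.00 and 6.34 in CD11A- replicates 1 to 3, and 9.81 and 7.11 in CD11A+ replicates 1 and 2, and 19 of 19 had a higher mean in CD11A+ HSCs. Without CD11A+ replicate 1, 9 were higher and 10 lower. Within sort days, 19 of 19 were higher on day A (median 1.98) and 18 on day B (median 0.65). CD11A- replicate 3, lowest for proliferation genes, was lowest for Cdkn2c and highest for Cdkn1c, and CD11A+ replicate 1 was the reverse. Unlike Cdkn2c, the proliferation mean overlapped between the subfractions. CD11A+ replicate 2 lay below CD11A- replicates 1 and 2, which came from other sort days, for the proliferation mean but above them for Cdkn2c (8.02 against 7.38 and 7.37). It lay above CD11A- replicate 3 of its own day for both the proliferation mean (7.11 against 6.34) and Cdkn2c (8.02 against 6.73). Cdkn3, a phosphatase that acts on CDKs and is no member of either branch, had 4.90, 4.94 and 4.56 in CD11A-, and 7.47 and 5.30 in CD11A+ replicates. The part of proliferation in the Cdkn2c and Cdkn1c values was not tested.

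**Figure D4:**
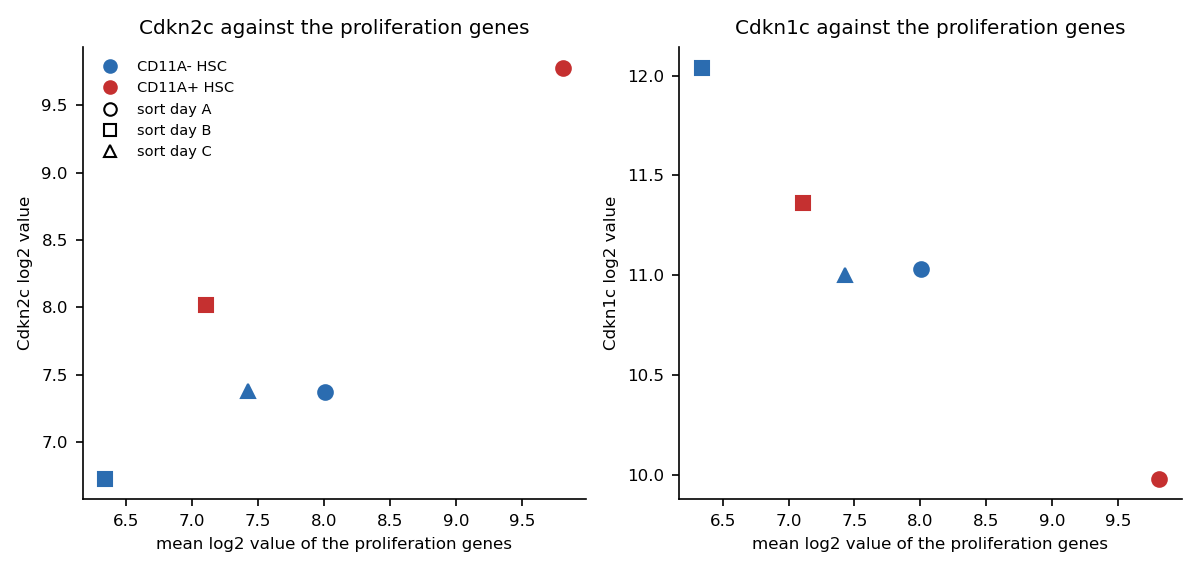
Log2 value of Cdkn2c (left) and Cdkn1c (right) against the mean log2 value of 19 proliferation genes in each of the 5 arrays (blue, CD11A-; red, CD11A+; shapes give the sort day). Cdkn2c is highest and Cdkn1c lowest in CD11A+ replicate 1, where the proliferation mean is 9.81, and the reverse holds for CD11A- replicate 3, where it is 6.34.

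Of 12 genes for the turnover of Cip/Kip proteins, means in CD11A+ HSCs were higher for 5 and lower for 7, with a median difference of -0.04. For 4 of the 12 both CD11A+ arrays lay above all CD11A- arrays, as for 8.56% of all genes. These were Skp2, which marks p27 for degradation and had 8.14, 8.22 and 8.44 in CD11A- and 9.34 and 8.67 in CD11A+ replicates, Dtl, which marks p21 for degradation, Pcna, the clamp on which this happens, and Cul4a, a scaffold of that ligase. Their differences were 0.74 for Skp2, 1.48 for Dtl, 0.61 for Pcna and 0.21 for Cul4a, and without CD11A+ replicate 1 they were 0.40, 0.87, 0.41 and 0.30. Dtl and Pcna are also genes of DNA replication. For 1 of the 12, Cul1, named after its values were seen, both CD11A+ arrays lay below all CD11A- arrays (difference -0.08), as for 10.4% of all genes. Without CD11A+ replicate 1, 4 of the 12 were higher and 8 lower, with a median of -0.105. Within sort days, 8 were higher on day A and 6 on day B. None passed limma's adjusted test.

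Of 16 measured transcriptional regulators of CDK inhibitor genes, 6 had higher and 10 had lower means in CD11A+ HSCs, and for 5 of the 16 both CD11A+ arrays lay below all CD11A- arrays, as for 10.4% of all genes. Foxo1, a factor that can activate Cdkn1b, had 9.43, 9.86 and 9.37 in CD11A- replicates 1 to 3, and 8.38 and 8.90 in CD11A+ replicates 1 and 2, with 1 of its 4 probesets of the opposite sign. Foxo3 and Foxo4 of the same list, named after their values were seen, had differences of 0.10 and 0.24, and their groups overlapped. Without CD11A+ replicate 1 these were 0.57 and 0.61. Gfi1, a repressor that limits HSC proliferation in mice, had 10.36, 9.72 and 10.84 in CD11A- and 7.66 and 9.52 in CD11A+ replicates. Their differences were -0.91 for Foxo1 and -1.72 for Gfi1, and -1.40 for Egr1, an immediate early factor, and without CD11A+ replicate 1 they were -0.65, -0.79 and -1.48. Cdkn1b differed by 0.10 beside them.

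Of 13 measured Polycomb genes, which repress Cdkn2a and Cdkn2b, 6 had higher and 7 had lower means, with a median difference of -0.02. Ezh2, a histone H3 methyltransferase, had 9.94, 9.79 and 9.43 in CD11A- replicates 1 to 3, and 11.22 and 10.17 in CD11A+ replicates 1 and 2 (difference 0.98, and 0.45 without CD11A+ replicate 1). Ezh1, its paralog, differed by -0.62 with 2 of its 4 probesets of the opposite sign. Bmi1 differed by -0.25, with both CD11A+ arrays below all CD11A- arrays. The values of Cdkn2a and Cdkn2b were dim on every array beside these differences.

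Of 14 measured p53 target genes, listed to set Cdkn1a beside them, 7 were higher and 7 lower in CD11A+ HSCs, with a median of 0.06 (0.22 on day A and -0.11 on day B). Ccng1 differed by -0.50, and Mdm2 by -0.20, each with 1 of 3 probesets of the opposite sign, and Aen by 0.28. These 3 were without overlap between the subfractions, the first pair lower and Aen higher in CD11A+ HSCs. Over all genes, 8.56% had both CD11A+ arrays above and 10.4% had both below all CD11A- arrays. Plk2 differed by -1.02 and Gadd45a, named after its values were seen, by 0.72, and both overlapped. Of 12 genes near Cdkn1c, an imprinted gene, 5 were higher and 7 lower, with a median of -0.01. Phlda2, imprinted like Cdkn1c, had 7.98, 7.81 and 7.35 in CD11A- and 7.15 and 6.65 in CD11A+ replicates (difference -0.81), and Tssc4 had a difference of 0.73. Both were without overlap between the subfractions, in opposite directions. Kcnq1, with 4.75, 4.87 and 4.90 in CD11A- and 5.10 and 5.62 in CD11A+ replicates, was also higher without overlap (difference 0.52). Of the 12 genes, 2 thus lay above and 1 below without overlap, beside 8.56% and 10.4% of all genes. Mtap and Dmrta1, near Cdkn2a and Cdkn2b, differed by 0.08 and -0.05.

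Among 4066 genes with a range of at least 1 log2 unit over the 5 arrays, the patterns most like that of Cdkn2c were those of Wdr62 (Pearson r = 0.997 over 5 arrays), Ezh2 (0.996) and 6030498E09Rik (0.996). Wdr62, a spindle pole protein, had 4.81, 4.76 and 4.52 in CD11A- and 6.01 and 5.04 in CD11A+ replicates. Those most like Cdkn1c were Ago3 (0.993), Arhgef12 (0.992) and Slamf8 (0.991). Over 5 points, 98 genes for Cdkn2c and 88 for Cdkn1c had r above 0.95, and these values only describe the arrays.

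Genes of other cell types differed over the same arrays. Of 14 measured granulocyte genes 11 had a higher mean in CD11A+ HSCs, and the mean of the list was 5.44 to 7.24 in CD11A- and 5.80 and 8.29 in CD11A+ arrays. Without CD11A+ replicate 1, 4 of the 14 were higher. Within sort days, 11 were higher on day A and 9 on day B. Of 9 macrophage genes 8 were higher, with list means of 5.92 to 6.96 in CD11A- and 7.03 and 7.77 in CD11A+ arrays, which did not overlap, as for Cdkn2c. C1qc, a complement gene of macrophages, had 4.16, 5.19 and 5.05 in CD11A-, and 7.12 and 6.29 in CD11A+ replicates. Of 11 lymphoid genes 8 were higher (list means 5.20 to 5.31 and 5.14 to 5.52), and of 10 megakaryocyte and erythroid genes 6 (6.06 to 6.29 and 6.21 to 6.78). Without CD11A+ replicate 1, 8 of the 9 macrophage, 5 of the 11 lymphoid and 5 of the 10 megakaryocyte and erythroid genes were higher. For these lists in order, 8, 9 and 6 genes were higher on day A, and 8, 6 and 5 on day B. No RMA value is at 0, and the part of such cells in the values of the CDK inhibitor genes was not tested.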

How the data were processed

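RNA of 3 CD11A- and 2 CD11A+ HSC samples was measured on Affymetrix arrays. The values the authors deposited are log2 units, 1 per probeset, and the submitters' processing notes name RMA as the method. The sources used here give neither its version nor which arrays were normalized jointly. The supplement describes normalization on the Gene Expression Commons as well. Both deposited tables hold the same values for these arrays. In one of them 40 further columns of other samples were not used.

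After 64 control probesets were left out, 45037 were tested. Platform annotation names 1 gene for 34945, several for 932 and none for 9160. Genes are represented by their brightest probeset. CD11A+ minus CD11A- differences were fitted with limma 3.58.1 in R 4.3.3 (lmFit, eBayes) with no block term, and p-values were adjusted over all probesets by Benjamini-Hochberg. The sources name no test for this comparison. The fit was also run on simulated data with independent probesets and no sort-day effect. That run does not show how the fit behaves with the sort days of these data. Single genes were also compared by an exact permutation test over the 10 ways to choose 2 of 5 arrays.

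The members and lists were chosen with earlier results of these data known. Named genes are all members, part of up to 4 genes per list (those without overlap first, then by p), the 3 genes most like each member that varied by 1 log2 unit, and Itgal. Listed genes that no single-gene probeset represents were not analysed here. Promoter windows are from RefSeq (GRCm38.p6).

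Sort days come from the labels and pair CD11A- replicates 2 and 3 with CD11A+ replicates 1 and 2. Deviations from the group means correlated over probesets at 0.56 and 0.59 for these pairs, and at 0.12 and -0.56 for arrays with the same replicate number. With 2 CD11A+ arrays these deviations mirror each other, so the pairing rests on the labels. Alternatives were the other deposited table, sort day and replicate number as blocks, comparisons within sort days and leaving out each array. Further ones were other normalizations, array weights, a mean-variance trend, leaving out dim probesets and the other probesets of a gene.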

Additional observations from a re-analysis of the deposited data

How the results depend on the processing

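Cdkn2c was higher in CD11A+ HSCs under all 16 alternatives run for it, and Cdkn1c lower under 15 of 16, with 0.0033 without CD11A+ replicate 1 the exception. The Cdkn2c groups did not overlap, so leaving out 1 array or comparing within a day could not turn its sign. The other deposited table, the mean-variance trend and leaving out dim probesets left its difference at 1.74. These counts are therefore not independent checks. No member passed the adjusted threshold under any alternative run. Leaving out 1 array gave 0 to 20 called probesets, the 20 without CD11A+ replicate 2. It gave differences of 0.86 to 2.62 for Cdkn2c, -1.38 to 0.0033 for Cdkn1c, -0.015 to 0.365 for Cdkn1a, -0.005 to 0.26 for Cdkn1b, -0.39 to 0.057 for Cdkn2a, -0.16 to 0.19 for Cdkn2b and -0.44 to 0.45 for Cdkn2d. The median was -0.02 to 0.26 for Cip/Kip, -0.10 to 0.25 for Ink4 and -0.22 to 0.28 for their difference. With the replicate block, which crosses the sort days, the difference was 1.52 for Cdkn2c, -0.34 for Cdkn1c and -0.13 for Cdkn2d, and 0 probesets were called. The sign of genes with differences near 0 turned. Cdkn2d had -0.05 and -0.022 with sort day as a fixed and random block, -0.0080 with array weights and -0.18 within day B, and Cdkn2b had -0.01 after quantile normalization and -0.16 within day A (0.16 within day B). Cdkn2a had 0.14 within day A and -0.51 within day B, Cdkn1a 0.82 and -0.09, and the dim Cdkn1b probeset -0.063. Without dim probesets, which removes Cdkn2a and Cdkn2b, the Ink4 median was 0.87 and the Cip/Kip minus Ink4 value -0.77. The files hold no detection calls, so which dim values measure transcript was not settled.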
